A study of Homo sapiens with 4 samples.

Results

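The 10 genes described here are imprinted genes: H19, IGF2, MEG3, PEG10, MEST, DLK1, PEG3, CDKN1C, PLAGL1 and GRB10. They were chosen by name among the 31907 gene names counted over 4 RNA-seq libraries, and a gene missing from a library's list was taken as 0 counts there. All 10 were listed in at least 1 library, and 9 passed the filter on low counts that left 16361 genes for testing. The libraries came from HGC-27, an established human gastric cancer cell line. In 2 libraries the cells had received PBS and in 2 they had received recombinant IL-17B (rIL-17B) at 200 ng/ml, each for 48 h. The comparison addressed which transcripts differ once the cytokine has been added. No genetic change was named for either group, and all 4 libraries stem from the 1 cell line, so they describe that line alone.

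Imprinting is the marking of a gene, through DNA methylation laid down in the egg or the sperm, so that only the copy from 1 parent is read. IGF2, PEG10, MEST, DLK1, PEG3 and PLAGL1 are known to be read mainly from the paternal copy, and H19, MEG3 and CDKN1C mainly from the maternal copy, while the parental choice at GRB10 depends on tissue and promoter. Many of these genes act on fetal and placental growth, and loss or gain of their expression is common in tumors, gastric tumors included. The libraries count transcripts from both copies together, so neither the parental origin of a transcript nor methylation was measured.

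The promoters of MEG3, MEST and PLAGL1 are shown because the first and the second belong to transcripts that were almost missing from 1 rIL-17B library, while PLAGL1 was counted at a similar level in all 4. A promoter from RefSeq on GRCh38.p14 was at hand for 5 of the 10 genes. Each sequence runs from 250 bases before to 50 bases after a transcript start, and of the promoters listed for a gene the one with the most CpG dinucleotides, the sites that carry imprint methylation, was taken. Capitals mark the CpG sites.
MEG3, chr14:100825858-100826157, plus strand: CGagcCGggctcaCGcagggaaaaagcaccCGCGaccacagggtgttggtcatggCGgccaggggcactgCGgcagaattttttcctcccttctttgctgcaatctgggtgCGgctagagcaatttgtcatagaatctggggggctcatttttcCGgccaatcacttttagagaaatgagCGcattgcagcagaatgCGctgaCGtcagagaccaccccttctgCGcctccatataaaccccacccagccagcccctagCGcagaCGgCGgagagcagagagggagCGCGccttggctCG
MEST, chr7:130491835-130492134, plus strand: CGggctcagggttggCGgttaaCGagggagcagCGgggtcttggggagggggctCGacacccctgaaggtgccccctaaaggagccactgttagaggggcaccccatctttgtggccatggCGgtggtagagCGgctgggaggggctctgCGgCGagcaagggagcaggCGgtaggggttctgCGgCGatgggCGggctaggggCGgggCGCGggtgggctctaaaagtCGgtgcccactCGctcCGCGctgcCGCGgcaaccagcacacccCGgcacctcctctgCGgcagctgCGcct
PLAGL1, chr6:144008210-144008509, minus strand: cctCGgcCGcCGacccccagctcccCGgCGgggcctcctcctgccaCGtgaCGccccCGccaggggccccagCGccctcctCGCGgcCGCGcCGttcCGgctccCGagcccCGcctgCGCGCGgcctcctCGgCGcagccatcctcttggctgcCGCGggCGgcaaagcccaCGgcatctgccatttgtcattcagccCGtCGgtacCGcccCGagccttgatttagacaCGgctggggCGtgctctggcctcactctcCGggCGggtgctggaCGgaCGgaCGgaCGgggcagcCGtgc
The MEG3 window held 19 CpG sites, the MEST window 25 and the PLAGL1 window 39, against a median of 14 over 35116 RefSeq promoters of the same length. At least as many CpG sites stood in 42.9%, 32.03% and 8.71% of those promoters, respectively, and the choice of the richest window raises the rank of each gene. The hexamer TGCCGC, the core recognized by the imprint guardian ZFP57 when its CpG is methylated, occurred once in the MEG3 window, 3 times in the MEST window and at 2 places in the PLAGL1 window, both strands counted. The windows chosen in the same way for H19 and GRB10 held 6 and 49 CpG sites and 0 copies of it. On either strand, the hexamer was present in 16.7% of all promoters. The hexamer contains a CpG, so windows rich in CpG have more places for it, and the letters alone do not show that the protein binds.

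MicroRNAs lie inside H19, MEST and MEG3, and the mature sequences of 3 of them are given because their host transcripts were at or near 0 in the same library. Capitals mark the seed, bases 2 to 8.
hsa-miR-675-5p, in an exon of H19, chr11:1996800-1996822, minus strand: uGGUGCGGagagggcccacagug
hsa-miR-335-5p, in an intron of MEST, chr7:130496126-130496148, plus strand: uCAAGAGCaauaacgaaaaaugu
hsa-miR-770-5p, in an exon of MEG3, chr14:100852409-100852431, plus strand: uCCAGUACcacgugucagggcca
The 3 seeds differ from each other. Mature microRNAs were not measured by these libraries. The gene name MIR770 was listed with 5 and 9 counts in the PBS libraries, 0 in rIL-17B replicate 1 and 4 in replicate 2, and its exon lies within MEG3, so these reads cannot be separated from those of the host.

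The libraries held 12888029 to 17555879 counts over the names used, and 3 counts, taken as the floor of detection, equaled 0.171 to 0.233 CPM. CPM is the count of a gene scaled to a library total of 1e6 counts, and each library was scaled on its own. Library rIL-17B replicate 1 stood apart from the other 3, so the values of the 10 genes are given for each rIL-17B library, beside the fits over both. Of all genes tested, 18.6% were at least 2-fold lower and 2.61% at least 2-fold higher in rIL-17B replicate 1 than the PBS mean, against 0.575% and 0.0611% in rIL-17B replicate 2, with 0.5 CPM added to each value. Summed over 8 mesenchymal markers, the CPM was 54760 and 53805 in the PBS libraries, 1167 in rIL-17B replicate 1 and 45811 in replicate 2, and 8 of 8 were at least 2-fold lower in replicate 1. The summed CPM of 8 epithelial markers was 996, 990, 2221 and 1247 in the same order. KRT8, KRT18 and KRT7 carried that sum, and of 7 markers tested 2 were at least 2-fold higher in replicate 1 and 1 lower, KRT19, with 47, 43, 1 and 58 counts. CDH1, which encodes E-cadherin, lay between 0.44 and 0.75 CPM in all 4 libraries. The 9 neural and glial markers summed to 405, 636, 27.7 and 292 CPM, with SOX10 at 0 in all 4 libraries and OLIG1 and OLIG2 at 0 in rIL-17B replicate 1. The 8 monocyte markers, checked because the labels' protocol speaks of monocytes, summed to 8.55 to 10.8 CPM, and 5 of the 8 were at 0 in rIL-17B replicate 1. CSF1R, at 3.90, 5.59, 8.14 and 6.15 CPM, was most of that sum in replicate 1, and of 4 markers tested 3 were at least 2-fold lower there. Of the 5 at 0, LYZ, FCGR3A and TYROBP were not tested and had at most 8 counts in any library. Among all 16361 genes tested, 896 were at 0 in rIL-17B replicate 1. The part of these shifts in the results below was not tested.

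**Figure D1:**
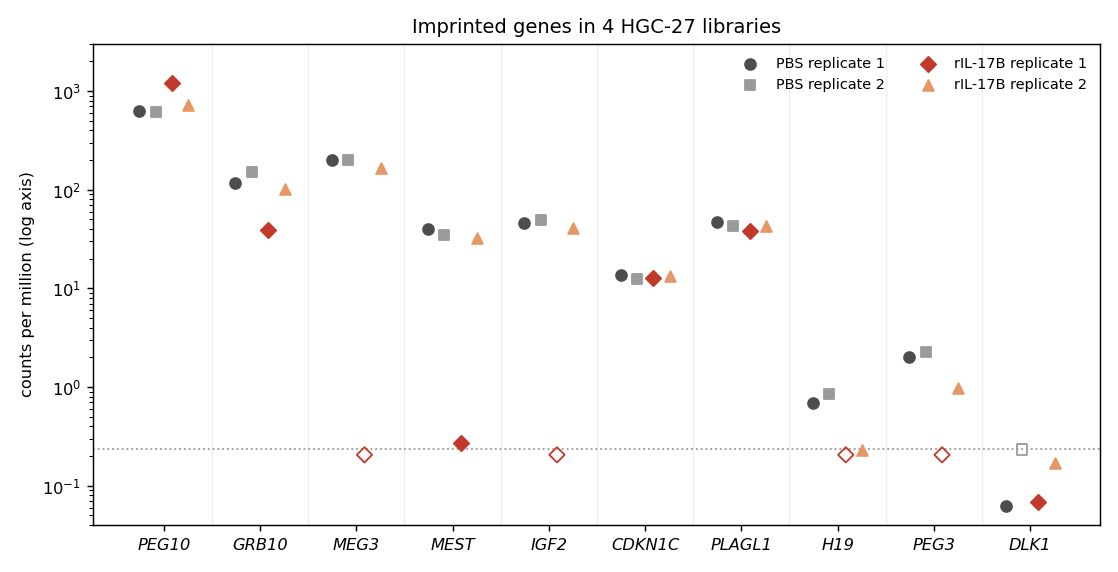
CPM of the 10 imprinted genes on a log axis, 1 point for each library, ordered by the PBS level per kilobase. Open symbols mark 0 counts and are drawn at the library's floor of 3 counts, and the dotted line is the highest floor, 0.233 CPM. The 4 open red diamonds are MEG3, IGF2, H19 and PEG3 in rIL-17B replicate 1, where PEG10 alone lies clearly above its PBS points.

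In the PBS libraries the 10 genes ranged over 4 orders of magnitude per length of exon. That length is of all annotated exons of a gene together, 23224 bases for MEG3 and 9795 for GRB10, so the order depends on the annotation. By CPM alone MEG3, with a PBS mean of 200.4, stood above GRB10, with 133.7. PEG10 was highest, at 92.0 ± 1.77 CPM per kb of exon (SD, n = 2). GRB10 followed at 13.6 ± 2.39, MEG3 at 8.63 ± 0.0287, MEST at 7.74 ± 0.780, IGF2 at 6.18 ± 0.372, CDKN1C at 5.31 ± 0.342 and PLAGL1 at 5.17 ± 0.348 CPM per kb. The PBS values of CDKN1C and PLAGL1 overlapped, whereas those of every other pair of neighbors in this order did not. This rests on 2 values per gene and leaves out counting error, which is wide for H19, with 11 counts in each PBS library, so close neighbors are not reliably ordered. H19, at 0.267 ± 0.0395, and PEG3, at 0.218 ± 0.0172 CPM per kb, were far lower, and DLK1 was at the edge of detection with a mean of 0.00592 CPM per kb.

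The first group of genes encodes growth signals and the proteins that pass them on. IGF2 encodes insulin-like growth factor 2, a fetal growth factor. It had 723 and 638 counts in the PBS libraries, 0 in rIL-17B replicate 1 and 721 in replicate 2, that is 45.5, 49.5, 0 and 41.1 CPM. The transcript was thus missing from 1 library and near its PBS level in the other, with both rIL-17B libraries below both PBS libraries. Against the PBS mean of 47.5 CPM, IGF2 was at least 231-fold lower in rIL-17B replicate 1, from the floor of 3 counts in that library, and stood at 86.5% of the mean in replicate 2. Bounds of this kind, here and below, rest on that floor and are not confidence limits. The fitted log2 fold change over all 4 libraries was -1.21 (SE 2.18), with an adjusted p of 0.777 by edgeR's quasi-likelihood test, adjusted by the Benjamini-Hochberg method over all genes tested. A bulk library cannot tell fewer cells of a kind from less RNA in each cell, here or in the results below. IGF2 spans chr11:2129112-2158658 on the minus strand of GRCh38 over 2 annotation entries, and an antisense gene, IGF2-AS, shares exon sequence with it and had 4, 2, 0 and 2 counts.

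DLK1 encodes a transmembrane protein of the Notch ligand family that holds back adipocyte differentiation. It had 1 and 0 counts in the PBS libraries and 1 and 3 in the rIL-17B libraries. All 4 values lay at or under the floor, so no difference was detectable at this depth. Its gene, chr14:100725705-100738224 on the plus strand, lies in the same domain as MEG3, whose count was 3180, 2589, 0 and 2943 in the same libraries. Per kb of exon, MEG3 exceeded DLK1 727-fold in PBS replicate 1 and 224-fold in rIL-17B replicate 2, and both ratios rest on 1 to 3 counts of DLK1.

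GRB10 encodes an adaptor that binds the insulin and IGF1 receptors and dampens their signal. Its CPM was 117 and 150.2 in the PBS libraries, 38.7 in rIL-17B replicate 1 and 103 in replicate 2. The gene was lowest in replicate 1 but remained well counted there, with 565 counts. Its PBS values differed more from each other than those of the other 6 abundant genes, by 0.36 on the log2 scale, and rIL-17B replicate 2 was closer to PBS replicate 1 than the PBS libraries were to each other. Replicate 1 stood at 28.9% and replicate 2 at 76.8% of the PBS mean. The log2 fold change was -0.96 (SE 0.58), with an adjusted p of 0.661 by edgeR's quasi-likelihood test. GRB10 spans chr7:50590063-50793462 on the minus strand.

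CDKN1C encodes p57, an inhibitor of cyclin-dependent kinases. Its CPM was 13.8 and 12.6 in the PBS libraries, 12.7 in rIL-17B replicate 1 and 13.2 in replicate 2. The groups overlapped, with both rIL-17B values inside the range of the PBS values. CDKN1C stood at 96.1% of the PBS mean in replicate 1, with a 95% counting interval of the ratio of 0.828 to 1.11, and at 100.3% in replicate 2. Its log2 fold change was -0.09 (SE 0.19; edgeR's quasi-likelihood test, adjusted p = 0.793). The gene lies at chr11:2883213-2885773 on the minus strand, in the same 11p15.5 band as IGF2 and H19. Counting intervals of a ratio, here and below, take the PBS mean as fixed and cover the counting error of the rIL-17B library alone.

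PLAGL1 and PEG3 encode zinc finger transcription factors, both described as restraints on cell growth. PLAGL1 had a CPM of 47.3 and 43.0 in the PBS libraries, 38.5 in rIL-17B replicate 1 and 42.7 in replicate 2. Both rIL-17B values were below both PBS values, by a margin that in replicate 2 was smaller than the gap between the PBS libraries. PLAGL1 stood at 85.3% of the PBS mean in replicate 1 and at 94.7% in replicate 2, and its log2 fold change was -0.22 (SE 0.15; edgeR's quasi-likelihood test, adjusted p = 0.661). PEG3 was scarce, with 32 and 29 counts in the PBS libraries, 0 in rIL-17B replicate 1 and 17 in replicate 2. It was at least 10.4-fold lower than the PBS mean in replicate 1 and at 45.4% of it in replicate 2, where the counting interval of the ratio ran from 0.265 to 0.728. Its log2 fold change was -2.11 (SE 1.4999; edgeR's quasi-likelihood test, adjusted p = 0.661). PLAGL1 spans chr6:143940300-144064599 and PEG3 chr19:56810077-56840728, both on the minus strand, and PEG3 shares exons with ZIM2, which was not listed in any library.

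MEST encodes a protein of the alpha/beta hydrolase fold that is known from mesoderm and adipose tissue. It had 632 and 444 counts in the PBS libraries, 4 in rIL-17B replicate 1 and 572 in replicate 2, that is 39.7, 34.5, 0.274 and 32.6 CPM. Replicate 1 was close to the floor while the other 3 libraries lay together. The ratio of replicate 1 to the PBS mean was 0.00738, with a 95% counting interval of 0.00201 to 0.0189, and replicate 2 stood at 87.8% of the mean. The log2 fold change was -1.18 (SE 1.87; edgeR's quasi-likelihood test, adjusted p = 0.756). MEST spans chr7:130486171-130506465 on the plus strand and overlaps exons of COPG2 on the opposite strand. COPG2 had a CPM of 18.2, 19.2, 24.2 and 19.03 in the same order, so it was not lower where MEST was almost missing.

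PEG10 derives from a retrotransposon, encodes gag- and pol-like proteins and is needed for the placenta. It was the only one of the 10 with its highest value in rIL-17B replicate 1 among the abundant genes, with a CPM of 623 and 607 in the PBS libraries, 1208 in rIL-17B replicate 1 and 728 in replicate 2. Both rIL-17B values exceeded both PBS values. Replicate 1 stood at 196% and replicate 2 at 118% of the PBS mean. The log2 fold change was 0.57 (SE 0.25), with an adjusted p of 0.661 by edgeR's quasi-likelihood test. PEG10 made up 57.2% and 55.1% of the counts of the 10 genes in the PBS libraries, 93.1% in rIL-17B replicate 1 and 64.4% in the second rIL-17B library. The 95% Wilson intervals were 56.5 to 58.0, 54.3 to 56.0, 92.7 to 93.4 and 63.8 to 65.1%, and they cover counting error only. PEG10 spans chr7:94656325-94669695 on the plus strand, head to head with SGCE, which encodes epsilon-sarcoglycan and whose first exon it overlaps. SGCE had a CPM of 54.8, 50.2, 47.6 and 54.2, so that PEG10 exceeded its partner per kb of exon 35.5- and 37.7-fold in the PBS libraries, 79.2-fold in rIL-17B replicate 1 and 41.9-fold in replicate 2. The annotated exons of SGCE hold 20884 bases together and those of PEG10 6689, so these ratios depend on the annotation and are smaller by CPM alone.

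MEG3 and H19 are long noncoding RNAs, the first described as a restraint on growth and the second as the host of a microRNA that limits placental growth. MEG3 had 3180 and 2589 counts in the PBS libraries, 0 in rIL-17B replicate 1 and 2943 in replicate 2, that is 199.9, 200.9, 0 and 167.6 CPM. The PBS libraries differed from each other by 0.01 on the log2 scale. MEG3 had the largest range of the 10 genes: it was at least 976-fold lower than the PBS mean in replicate 1 and at 83.6% of it in replicate 2. The log2 fold change was -1.26 (SE 2.48; edgeR's quasi-likelihood test, adjusted p = 0.792). H19 was scarce throughout, with 11 and 11 counts in the PBS libraries, 0 in rIL-17B replicate 1 and 4 in replicate 2. It was at least 3.76-fold lower in replicate 1 and at 29.5% of the PBS mean in replicate 2. The counting interval of the second ratio, 0.0804 to 0.755, leaves out the error of the 11 counts in each PBS library. The log2 fold change of H19 was -2.64 (SE 1.21; edgeR's quasi-likelihood test, adjusted p = 0.661). IGF2 and H19 share an imprinting control region, and per kb of exon IGF2 exceeded H19 24.8- and 21.9-fold in the PBS libraries and 67.9-fold in rIL-17B replicate 2, with H19 at 4 counts there. MEG3 spans chr14:100779410-100861031 on the plus strand and H19 chr11:1995176-2001470 on the minus strand.

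Over the members, none of the 9 tested passed an adjusted p of 0.05 in the edgeR test, and 0% of all genes did. Of the 16361 genes tested, 226 (1.38%) had an unadjusted p under 0.05 in edgeR. DESeq2, run on 31907 genes without that filter, also called 0 genes, with 547 (1.71%) at that unadjusted level. With 2 libraries against 2, an exact two-sided permutation test of a single gene cannot go below 0.333. The labels do not say that replicates came from separate cultures, so the p-values measure the spread between these libraries, which may be technical. In rIL-17B replicate 1, 6 of the 9 were at least 2-fold lower than the PBS mean (H19, IGF2, MEG3, MEST, PEG3 and GRB10) and 0 were at least 2-fold higher, with 0.5 CPM added to each value as in every 2-fold count here. Counted so, none was 2-fold apart in rIL-17B replicate 2, but without the added 0.5 CPM H19 and PEG3 were (29.5% and 45.4% of the PBS mean), as was DLK1 on 3 counts against 1 and 0. The background is the 18.6% of all genes at least 2-fold lower in replicate 1 given above. Both rIL-17B libraries lay below both PBS libraries for 7 of the 9 and above them for 1, PEG10, where 27.5% and 31.5% of all genes did so. The median log2 fold change of the 9 was -1.18, beside -0.03 over all genes tested, and a gene counted mainly in 3 libraries passes the filter through those. In rIL-17B replicate 1, 4 of the 9 had at most 3 counts (H19, IGF2, MEG3 and PEG3), where 9.3% of all genes tested did. Of the 7 that had at least 100 counts in each other library, IGF2 and MEG3 had at most 3 counts there, where 3.21% of such genes did.

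**Figure D2:**
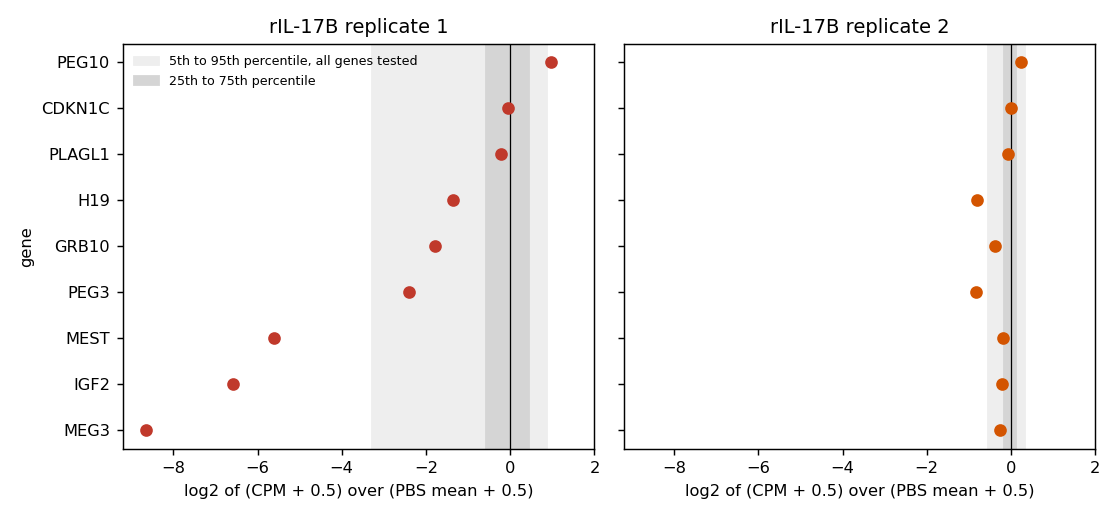
Log2 ratio of each rIL-17B library to the PBS mean, with 0.5 CPM added, for the 9 imprinted genes that passed the filter. The gray bands hold the 5th to 95th and the 25th to 75th percentile of all 16361 genes tested. In replicate 1, MEG3, IGF2 and MEST lie to the left of the 5th percentile, -3.28, and PEG10 to the right of the 95th, 0.89. In replicate 2, H19 and PEG3 lie to the left of the 5th percentile, -0.55.

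The result turned on which rIL-17B library was used. Without rIL-17B replicate 1, edgeR called 2.95% of all genes and 1 of the 9, GRB10, at a log2 fold change of -0.38 (SE 0.09; adjusted p = 0.00283), with PEG10 at 0.24 (SE 0.08; adjusted p = 0.0720). Without rIL-17B replicate 2, it called 55.1% of all genes and 8 of the 9, the exception being CDKN1C (adjusted p = 0.374). In that fit PEG10 was at 0.84 (SE 0.07; adjusted p = 8.33e-28), PLAGL1 at -0.37 (SE 0.12; adjusted p = 0.00372) and GRB10 at -1.92 (SE 0.10; adjusted p = 2.37e-74). Each of these fits set 1 rIL-17B library against the PBS pair and assumed that the lone library varies like the PBS libraries, so it compares those libraries and not the treatments.

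The other imprinted genes of the same domains were read beside the members. Of 20 such genes 11 were tested, 2 of which (18.2%, near the 18.6% of all genes) were at least 2-fold lower in rIL-17B replicate 1 and 0 higher, and none was 2-fold apart in replicate 2. Both lie downstream of MEG3 in the 14q32 domain. MEG8 had 24 and 16 counts in the PBS libraries, 0 in rIL-17B replicate 1 and 40 in replicate 2, and MEG9 had 44, 29, 0 and 44. The protein-coding genes of that domain, RTL1 and DIO3, had at most 2 counts in each library. In the second 11p15.5 domain, around CDKN1C, all 6 genes stayed within 2-fold in both rIL-17B libraries. Its antisense RNA KCNQ1OT1 had a CPM of 10.7 and 13.97 in the PBS libraries, 9.51 in rIL-17B replicate 1 and 11.1 in replicate 2. PHLDA2, a placental growth regulator, had 26.8, 28.9, 33.0 and 28.99 CPM, OSBPL5 53.6, 55.9, 71.2 and 60.0, SLC22A18 9.12, 7.68, 6.09 and 6.27, and KCNQ1, a potassium channel gene, 2.70, 1.94, 3.83 and 3.53. The 11p15.5 band therefore held genes at 0 and genes at their PBS level in the same library.

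At 7q21, only PEG10 approached 2-fold. PPP1R9A, which encodes neurabin, had a CPM of 5.72, 7.06, 7.32 and 7.63, and TFPI2, a protease inhibitor gene, 42.4, 49.4, 47.1 and 40.4. At 7q32, CPA4, a carboxypeptidase gene, had 26.9, 26.4, 35.8 and 27.8 CPM where MEST had 39.7, 34.5, 0.274 and 32.6, KLF14 had at most 3 counts in each library, and MESTIT1 was not listed. HYMAI, which shares sequence and strand with PLAGL1, had 1 to 3 counts, DDC beside GRB10 had at most 1, and MIMT1 beside PEG3 was not listed.

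**Figure D3:**
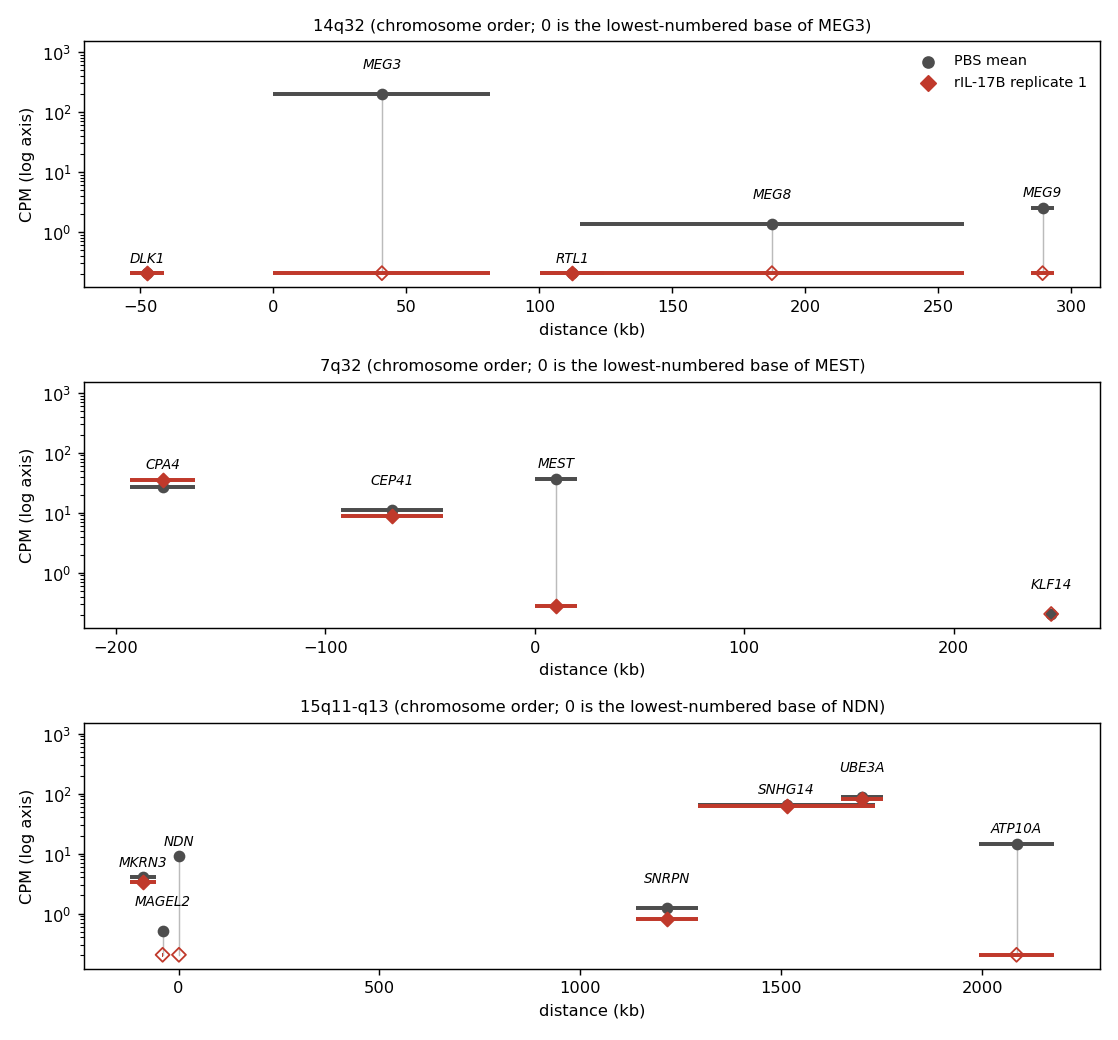
Mean CPM of the PBS libraries (gray circles) and CPM of rIL-17B replicate 1 (red diamonds) on a log axis, at each gene's place in 3 imprinted regions, with bars that span the gene and distance in kb. Values under the floor of rIL-17B replicate 1 (0.205 CPM) are drawn at the floor, and open symbols mark 0 counts. MEG3, MEG8 and MEG9 drop to the floor together, and MEST drops while CPA4 and CEP41 do not. NDN and ATP10A drop while SNHG14 and UBE3A, which overlap on opposite strands, keep their level.

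The 33 imprinted genes of other domains gave a mixed picture too. They were taken by name, and whether each is imprinted in this line was not measured. Of 23 tested, 7 (30.4%, beside 18.6% of all genes) were at least 2-fold lower in rIL-17B replicate 1 and 0 higher, and none was 2-fold apart in replicate 2. ATP10A, which encodes a phospholipid flippase, had 221 and 196 counts in the PBS libraries, 0 in rIL-17B replicate 1 and 213 in replicate 2. FAM50B had 65, 47, 0 and 56 counts, and NAP1L5, of the nucleosome assembly family, 129, 128, 2 and 91. NDN, which encodes necdin and was chosen after its values were seen, had 154, 107, 0 and 140. Like MEG3 and IGF2, these genes were counted in 3 libraries and at or near 0 in the fourth. In the same 15q11-q13 domain as ATP10A and NDN, UBE3A, a ubiquitin ligase gene, had 89.6, 83.5, 80.5 and 81.1 CPM and the noncoding SNHG14 65.6, 65.3, 62.9 and 61.1, both also named after their values were seen. UBE3A and SNHG14 overlap on opposite strands, so their reads may not be separable. The 3 most abundant of the 33 genes stayed close to the PBS level. GNAS, which encodes a G protein subunit, had 907, 902, 811 and 866 CPM, IGF2R, the receptor that clears IGF2, 443, 438, 464 and 451, and the tumor suppressor gene RB1 89.3, 83.2, 82.8 and 85.6. Over all 53 other imprinted genes, 34 were tested and 0 called by edgeR's quasi-likelihood test, 9 (26.5%, beside 18.6% of all genes) were at least 2-fold lower in replicate 1, and the median log2 fold change was -0.15.

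**Figure D4:**
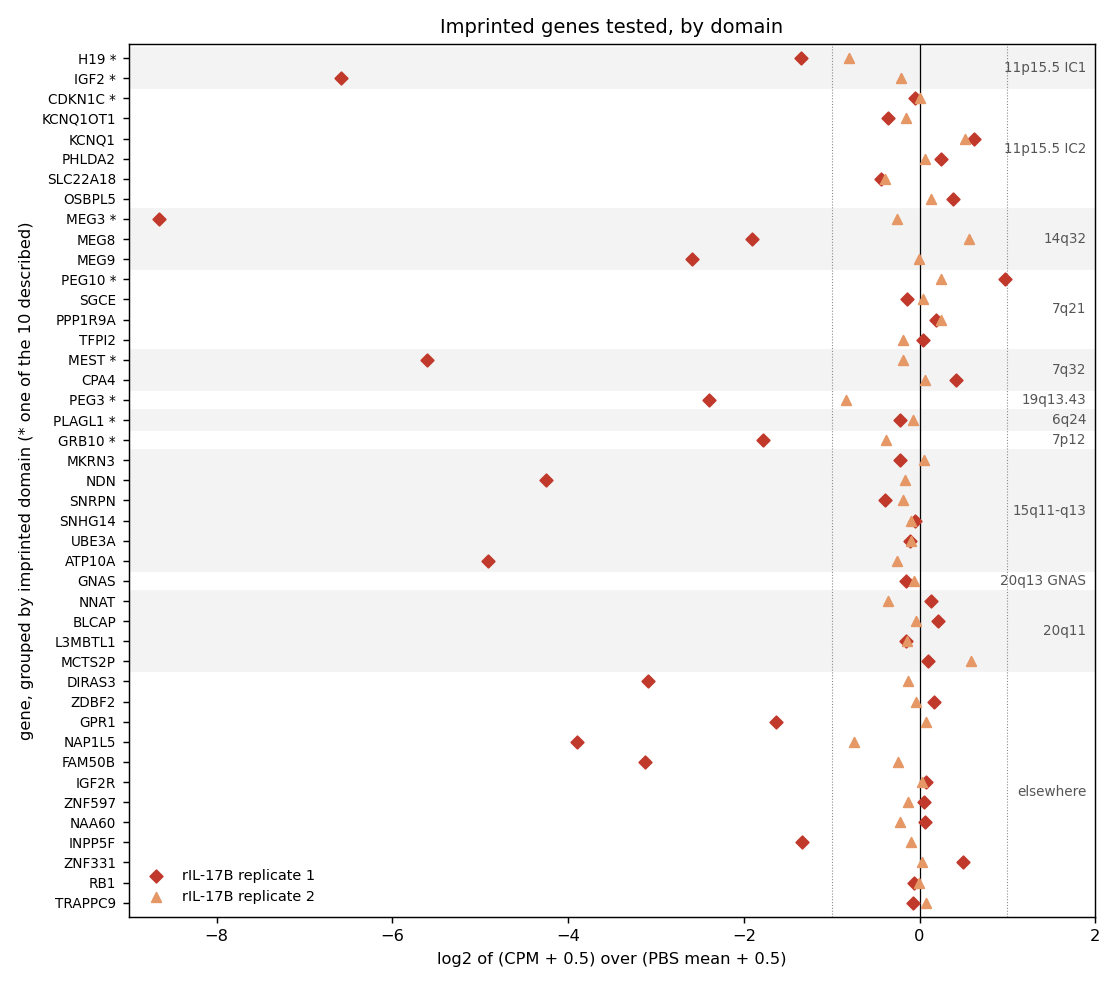
Log2 ratio of each rIL-17B library to the PBS mean, with 0.5 CPM added, for the imprinted genes tested, grouped by domain (labels at the right). Dotted lines mark 2-fold. Of 9 genes marked with a star, 6 lie beyond the left line in replicate 1, as do 9 of the other 34, and no gene lies beyond either line in replicate 2.

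Genes next to the members on the chromosome, imprinted or not, were read in the same way. The nearest tested gene on each side that does not overlap the member, which leaves out SGCE and COPG2, gave 19 genes, 12 of them not on the imprinted list, of which 3 were at least 2-fold lower and 1 at least 2-fold higher in rIL-17B replicate 1, beside 18.6% and 2.61% of all genes, and 0 were 2-fold apart in replicate 2, with 0.5 CPM added. MRPL23, the gene beside H19 on the side away from IGF2, had a log2 ratio of 0.63 to the PBS mean in replicate 1, with 0.5 CPM added, while H19 had -1.35, and 0.04 in replicate 2. BEGAIN, the neighbor of DLK1 on the far side from MEG3, had 0.67 in replicate 1, where MEG3 had -8.65, and -0.18 in replicate 2. CEP41, next to MEST, had -0.34 in replicate 1, where MEST had -5.60, and -0.16 in replicate 2. The 3 that were lower in replicate 1 were C11orf21 next to IGF2 (log2 ratio -1.98, with 32, 12, 0 and 27 counts), ZNF835 next to PEG3 (-1.86, with 21, 17, 0 and 10 counts) and AC016831.1, a pseudogene on the other side of MEST (-1.24, with 47, 46, 16 and 54 counts). The 1 that was higher was AC004830.1, an antisense gene beside GRB10 (1.25, with 15, 7, 36 and 8 counts). Members at or near 0 there thus had neighbors of both kinds. Without the added 0.5 CPM, ZNF835 was also over 2-fold lower in replicate 2.

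IGF2 acts through a set of receptors and binding proteins, and 15 genes of this axis, IGF2 included, were listed. They also include IGF1 and the RNA-binding protein genes IGF2BP1, IGF2BP2 and IGF2BP3. Of the 15 genes 13 were tested, 0 were called by edgeR's quasi-likelihood test and none was 2-fold apart in rIL-17B replicate 2. In replicate 1, 8 were at least 2-fold lower and 1 at least 2-fold higher, beside 18.6% and 2.61% of all genes. IGF2BP2 was among the 8 that were lower. The gene that was higher was IGF1R, the signaling receptor for IGF2, at 217 and 217 CPM in the PBS libraries, 439 in rIL-17B replicate 1 and 262 in replicate 2. Binding proteins carry IGF2 outside the cell. IGFBP4 had 682, 658, 21.6 and 552 CPM, IGFBP3 343, 311, 4.79 and 268, IGFBP5 59.5, 71.5, 1.78 and 48.4, and IGFBP2 60.0, 90.6, 11.8 and 44.5. Unlike IGF2, all 4 were still counted in rIL-17B replicate 1, with 26 to 316 counts.

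A further list held factors that keep imprints through cell division. It also held other factors of DNA methylation, such as the de novo methyltransferases DNMT3A and DNMT3B and the TET genes. Of the 16 genes, 13 were tested and 0 called by edgeR's quasi-likelihood test. In rIL-17B replicate 1, 2 were at least 2-fold higher and 1 at least 2-fold lower, beside 2.61% and 18.6% of all genes, and in replicate 2 none was 2-fold apart. DNMT1, which copies methylation to the new strand, had 251 and 270.3 CPM in the PBS libraries, 472 in rIL-17B replicate 1 and 282 in replicate 2. UHRF1, which brings DNMT1 to the replication fork, had 104 and 113, then 231 and 129. UHRF1 was 1 of the 2 that were higher, and the other, DNMT3B, named after its values were seen, had 8.68 and 9.70, then 18.95 and 10.4. ZFP57, whose core hexamer is given above, had 5.78 and 7.22, then 12.9 and 10.5, and TRIM28, its corepressor, 274 and 293, then 389 and 293. Both rIL-17B values lay above both PBS values for 6 of the 13, ZFP57 among them, and below them for 3, beside 31.5% and 27.5% of all genes. The single factor that was lower was DNMT3A, a de novo methyltransferase, at 32.4 and 32.3 CPM, then 14.03 and 23.5. The log2 fold changes of UHRF1, ZFP57 and DNMT3A were 0.64 (SE 0.28), 0.78 (SE 0.23) and -0.84 (SE 0.34), each with an adjusted p of 0.661 in that test.

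**Figure D5:**
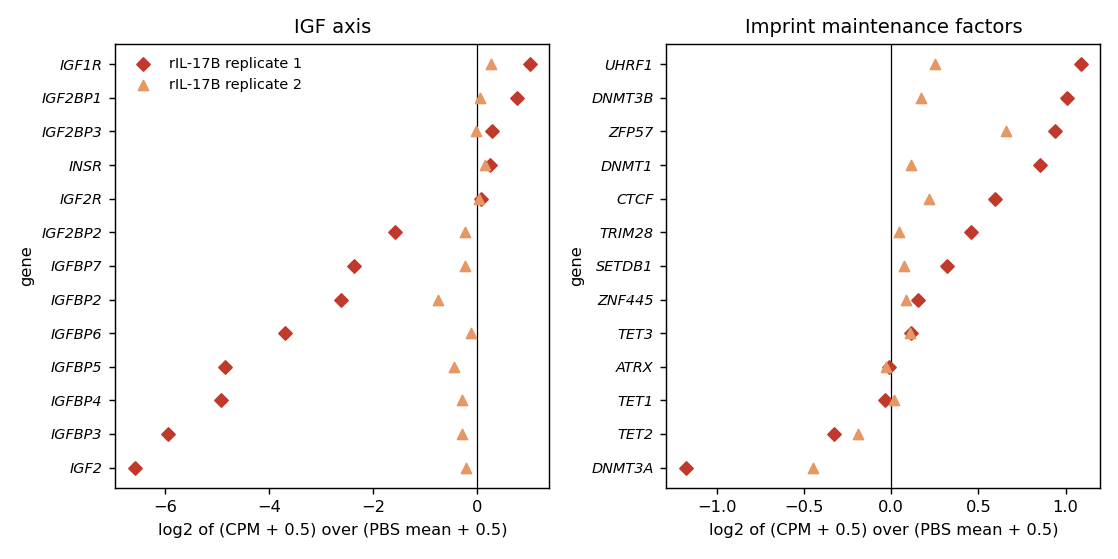
Log2 ratio of each rIL-17B library to the PBS mean, with 0.5 CPM added, for the 13 tested genes of the IGF axis (left) and the 13 tested factors of imprint maintenance and DNA methylation (right), on separate scales. IGF2 is the lowest of the IGF axis in replicate 1 and IGF1R the highest. DNMT3A is the lowest and UHRF1 the highest of the factors on the right in that library.

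Relatives of the members outside the imprinted list were read last, and 0 were called by edgeR's quasi-likelihood test. Of 7 tested, 2 were at least 2-fold lower in rIL-17B replicate 1, beside 18.6% of all genes, and none was 2-fold apart in replicate 2. CDKN1A, which encodes p21 and is a relative of CDKN1C, had 347 and 345 CPM in the PBS libraries, 68.4 in rIL-17B replicate 1 and 302 in replicate 2, whereas CDKN1B, which encodes p27, had 85.3, 81.4, 92.9 and 85.1. PLAGL2, a relative of PLAGL1, had 27.1, 27.9, 31.3 and 27.9 CPM. GRB14, a relative of GRB10, had 2.07, 2.09, 0.0684 and 1.71 CPM, the third value being 1 count, and GRB7 had 2.39, 3.49, 6.09 and 3.53. CDKN1C and its relatives thus differed in replicate 1, with CDKN1A low and CDKN1B and CDKN1C near their PBS values.

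Across 14919 genes with a mean of at least 1 CPM, those with the pattern over the 4 libraries nearest to MEG3, by Euclidean distance of centered log2(CPM + 0.5), were ADAMTS2, a procollagen protease gene (distance 0.0701), CDH11, a cadherin gene (0.115), and PF4, a chemokine gene (0.121). ADAMTS2 had 4784, 3742, 3 and 4363 counts, and CDH11 3306, 2475, 0 and 3126. Among the genes nearest to PEG10 were OXCT1, of ketone body use (distance 0.00791), and DROSHA, of microRNA processing (0.0198). OXCT1 had 236, 229, 455 and 276 CPM. Likeness over 4 libraries describes the pattern alone.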

How the data were processed

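RNA from 4 HGC-27 samples had been made into Smart-seq2 libraries with an oligo-dT primer. The deposited counts are whole reads per gene name, 1 list per library, and names at 0 are not listed. The submitters' processing notes name hg38, Bowtie2 2.2.3, HISAT2 2.1.0, TopHat2 and HTSeq 0.6.0 without roles, and the annotation and strand setting are not given in the sources used here. Date-like names (22 to 25 per library) were left out, and of repeated names, whose counts were identical, 1 was kept. CPM used the library totals. Intervals cover counting error only, and intervals of a ratio leave out that of the PBS libraries. The floor of 3 counts is a set limit and does not cover counting error.

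Genes were tested with edgeR 4.0.16 (TMM factors 0.970 to 1.07, filterByExpr, quasi-likelihood F test, Benjamini-Hochberg, threshold 0.05) in R 4.3.3 and checked on simulated data. DESeq2 1.42.0, other normalizations and filters, a replicate block and leaving out each library were alternatives. Coordinates and exon lengths came from GENCODE 29 on GRCh38, which placed 97.96% of the names, and promoters and microRNAs from RefSeq GRCh38.p14. Overlapping genes on opposite strands cannot be told apart where strand was not used.

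The 10 genes and all lists were chosen with earlier results of these data known. The text names those 10, imprinted genes that share a domain with them, and in the other imprinted genes and the IGF, maintenance and relative lists the 3 with the highest mean CPM and the 3 with the largest log2 fold change, plus the 3 genes nearest in pattern to the widest-ranging and to the most abundant of the 10. Genes named outside this rule, which include overlapping and flanking genes, are background. Some genes that the rule or the lists hold are not reported here.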

Additional observations from a re-analysis of the deposited data

How the results depend on the processing

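Leaving out each library in turn moved the genes called by edgeR from 0 to 9489, the 9 tested imprinted members called from 0 to 8 and the other imprinted genes called from 0 to 17. The calls came without an rIL-17B library: 504, 1 and 1 without replicate 1, and 9489, 8 and 17 without replicate 2, while without either PBS library 0 were called. Upper-quartile normalization, library totals alone, no filter, at least 10 counts in every library, and DESeq2 called 0 genes. At least 10 counts in every library left 4 of the 10 genes, since the others had fewer in rIL-17B replicate 1. The median log2 fold change of all genes was -0.03, -0.11 without the filter and with DESeq2, and 0.04 with library totals alone, and no member changed direction. With no CPM added, 3 genes (H19, DLK1 and PEG3), in place of 0, were 2-fold apart in rIL-17B replicate 2, and 7 in place of 6 in replicate 1. At 3-fold, 5 were apart in replicate 1.

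Same-numbered libraries share only a number, and their deviations from the group means correlated at 0.080 over 16361 genes. A fit with a replicate block called 0 genes, 0 members and 0 other imprinted genes, 173 genes had an unadjusted p under 0.05, and the fitted log2 fold change was -4.52 for MEG3, -3.62 for IGF2, -3.14 for MEST, -2.92 for PEG3 and -1.14 for GRB10. The floor of 3 counts limits what can be said of DLK1, H19 and PEG3.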
